A study of Mus musculus with 16 samples.

Results

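The S100 genes encode small calcium-binding proteins, and 10 of them were followed here across the left ventricles of mice lacking PKM2 and of their controls. The 10 are S100a1, S100a4, S100a6, S100a8, S100a9, S100a10, S100a11, S100a13, S100a16 and S100b, taken by symbol from a table of 55492 genes. The libraries came from 16 male C57BL/6 mice, 8 to 12 weeks old, each mouse giving 1 library of rRNA-depleted left ventricle RNA. In both genotypes, 2 hearts were taken without surgery (baseline), 3 hearts 3 days after a sham operation and 3 hearts 3 days after myocardial infarction (MI), for which the left anterior descending coronary artery was tied off for good. The sham operation left the artery open. PKM2fl/fl mice carry loxP sites around exon 10 of Pkm, the exon used only by the PKM2 isoform. PKM2-/- mice descend from a cross with a CMV-Cre line, which deletes in the germline and was later bred out, and so lack the exon in all cells and not only in heart muscle.

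S100 proteins have a pair of EF-hand motifs, bind calcium and then dock on partner proteins, mostly as dimers. Inside the cell they act on calcium handling, the cytoskeleton, annexins and membranes. Some are also released, S100A8 and S100A9 above all, and then signal through receptors such as TLR4 and RAGE. In the heart, S100A1 is the form of the muscle cell, where it raises the activity of the calcium pump SERCA2a and of the ryanodine receptor, and S100A8/S100A9 come mainly from neutrophils and monocytes.

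Of the 10 genes, 9 lie in a cluster on chromosome 3, together with 6 of the 8 other S100 genes in the table, and S100b lies on chromosome 10. In build GRCm38.p6, which is the assembly of mm10, RefSeq places S100a1 at chr3:90511034-90514330, S100a13 at chr3:90514233-90524581, S100a16 at chr3:90537254-90543151, S100a4 at chr3:90603770-90606045 and S100a6 at chr3:90612894-90614414. S100a8 follows at chr3:90669071-90670034 and S100a9 at chr3:90692630-90695721, with 22595 bases between them. S100a11 at chr3:93520496-93526288 and S100a10 at chr3:93555117-93564645 stand apart, 2824774 bases beyond S100a9, and S100b is at chr10:76253836-76261319. The spans of S100a1 and S100a13, which lie on opposite strands, share 98 bases, and reads from those bases cannot be told apart without strand. The remaining 8 members overlapped no other annotated gene.

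Upstream sequences of some members are shown, from RefSeq on GRCm38.p6. S100a8 and S100a9 were taken because they encode the partners of 1 complex. S100a4 and S100a11 had the highest fold changes for MI against sham, and S100a1 and S100a13 lie head to head on opposite strands. RefSeq windows matched 9 of the 10 members by symbol, with 2 windows for S100a16. Each of the first 4 sequences is the 250 bases before the start of transcription, read 5′ to 3′ on the strand of the gene, at chr3:90668821-90669070 (forward), chr3:90695722-90695971 (reverse), chr3:90603520-90603769 (forward) and chr3:93520246-93520495 (forward). The last is the 104 bases between the start of S100a1 (reverse strand) and the start of transcription on which the window of S100a13 (forward strand) is set, at chr3:90514331-90514434, read on the forward strand. That start lies downstream of where the S100a13 gene span begins, so this stretch is inside the S100a13 span, and the whole spans overlap. Capitals mark matches on either strand. The motifs searched were TATAAA, known as the promoter element near the start of many genes, then TGANTCA, the site of the factor AP-1, and lastly GGGCGG, the site of the factor Sp1 called GC box. No match overlapped another.
S100a8: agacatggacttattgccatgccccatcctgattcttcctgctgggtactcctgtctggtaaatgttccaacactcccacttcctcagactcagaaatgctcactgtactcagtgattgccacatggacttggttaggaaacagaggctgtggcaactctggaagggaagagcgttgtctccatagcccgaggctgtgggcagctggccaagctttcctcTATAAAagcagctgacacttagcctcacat
S100a9: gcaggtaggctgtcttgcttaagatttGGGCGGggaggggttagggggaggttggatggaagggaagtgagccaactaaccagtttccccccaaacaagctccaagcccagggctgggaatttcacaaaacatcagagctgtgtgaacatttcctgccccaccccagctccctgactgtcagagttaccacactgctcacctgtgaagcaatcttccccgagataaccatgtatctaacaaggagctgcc
S100a4: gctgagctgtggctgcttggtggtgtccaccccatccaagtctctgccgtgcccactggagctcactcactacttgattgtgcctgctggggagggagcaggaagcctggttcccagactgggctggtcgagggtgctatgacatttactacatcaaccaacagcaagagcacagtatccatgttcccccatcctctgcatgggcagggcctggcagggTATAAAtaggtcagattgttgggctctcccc
S100a11: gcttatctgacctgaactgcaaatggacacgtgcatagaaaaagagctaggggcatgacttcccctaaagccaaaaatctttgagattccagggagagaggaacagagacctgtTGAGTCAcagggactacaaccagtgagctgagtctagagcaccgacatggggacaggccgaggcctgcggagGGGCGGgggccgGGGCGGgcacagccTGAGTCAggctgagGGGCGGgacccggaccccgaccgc
S100a1 and S100a13: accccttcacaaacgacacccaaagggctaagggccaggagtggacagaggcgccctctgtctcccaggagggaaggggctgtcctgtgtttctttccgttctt

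TATAAA stood 30 bases before the start of S100a8 and 31 before that of S100a4, and 12.4% of all 32851 RefSeq windows of this length held it. S100a11 had TGANTCA at 136 and 38 bases before its start and GGGCGG at 64, 52 and 24 bases. Of all windows, 6.75% held TGANTCA and 32.7% held GGGCGG. S100a9 had no TATAAA in its window and held GGGCGG at 223 bases before the start, so the partner genes did not share a match. No letters of the 3 motifs were in the stretch between these starts of S100a1 and S100a13, nor in the windows of S100a6 and S100b, while the second window of S100a16 held TGANTCA at 192 bases and GGGCGG at 30 bases. These matches describe letters only.

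Library size ranged from 20623769 to 71855101 reads, of which 15.8% to 46.0% fell on rRNA-related loci. In hearts without MI, this share was lower in every PKM2fl/fl than in every PKM2-/- library. At baseline it was 17.2% and 22.1% in PKM2fl/fl against 43.8% and 39.6% in PKM2-/- hearts. After sham it was 15.8% to 27.8% against 28.5% to 46.0%. After MI the genotypes overlapped, at 19.8% to 44.5% in PKM2fl/fl and up to 34.2% in PKM2-/- hearts. The part of this share in the genotype comparisons was not tested. The values are normalized counts, the reads of a gene divided by the size factor of its library, and 1 read was worth 0.490 to 1.83 normalized counts. Pkm, the targeted gene, had 7779 to 12076 normalized counts in PKM2fl/fl libraries and 10120.2 to 16113 in PKM2-/- libraries, but it was counted as a whole gene, so its level does not check the loss of exon 10. Fold changes come from limma on log2(normalized count + 1), fitted to all 16 libraries and 20576 genes, and a gene was called at an adjusted p under 0.05 with at least a 2-fold change. On this scale, low genes show less than their full change. Scaling by total reads moved the median of all genes by 0.52 (log2) for MI against sham in PKM2-/- hearts and by 0.36 for genotype after MI. With it, 5494 genes were called higher and 1512 lower after MI in PKM2-/- hearts, against 2974 and 2949 with the deposited scaling. The same scaling turned 2553 higher and 2279 lower genes into 2049 and 2851 for MI against sham in PKM2fl/fl hearts, 32 and 53 into 101 and 20 for genotype after MI, and 423 and 125 into 551 and 32 for sham against baseline in PKM2-/- hearts.

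At baseline the 10 genes spanned more than 2 orders of magnitude in level per kilobase of transcript. S100a1 led with 7016 ± 51.3 normalized counts per kilobase in PKM2fl/fl hearts (SD, n = 2), and S100a16 (444 ± 99.7) and S100a6 (367 ± 50.7) came next, with overlapping values. S100a10 (146 ± 11.3), S100a4 (140 ± 27.9) and S100a11 (117 ± 20.8) followed, where S100a4 overlapped both of its neighbours. S100a13 (64.0 ± 3.10), S100a9 (46.8 ± 27.3) and S100a8 (34.7 ± 31.0) also overlapped in this order, and S100b was last at 14.7 ± 0.239. These levels use the length of the canonical GENCODE transcript. With the shortest protein-coding transcript of each gene, S100a1 kept the first and S100b the last rank at baseline, while S100a13 moved from rank 7 to rank 4.

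**Figure D1:**
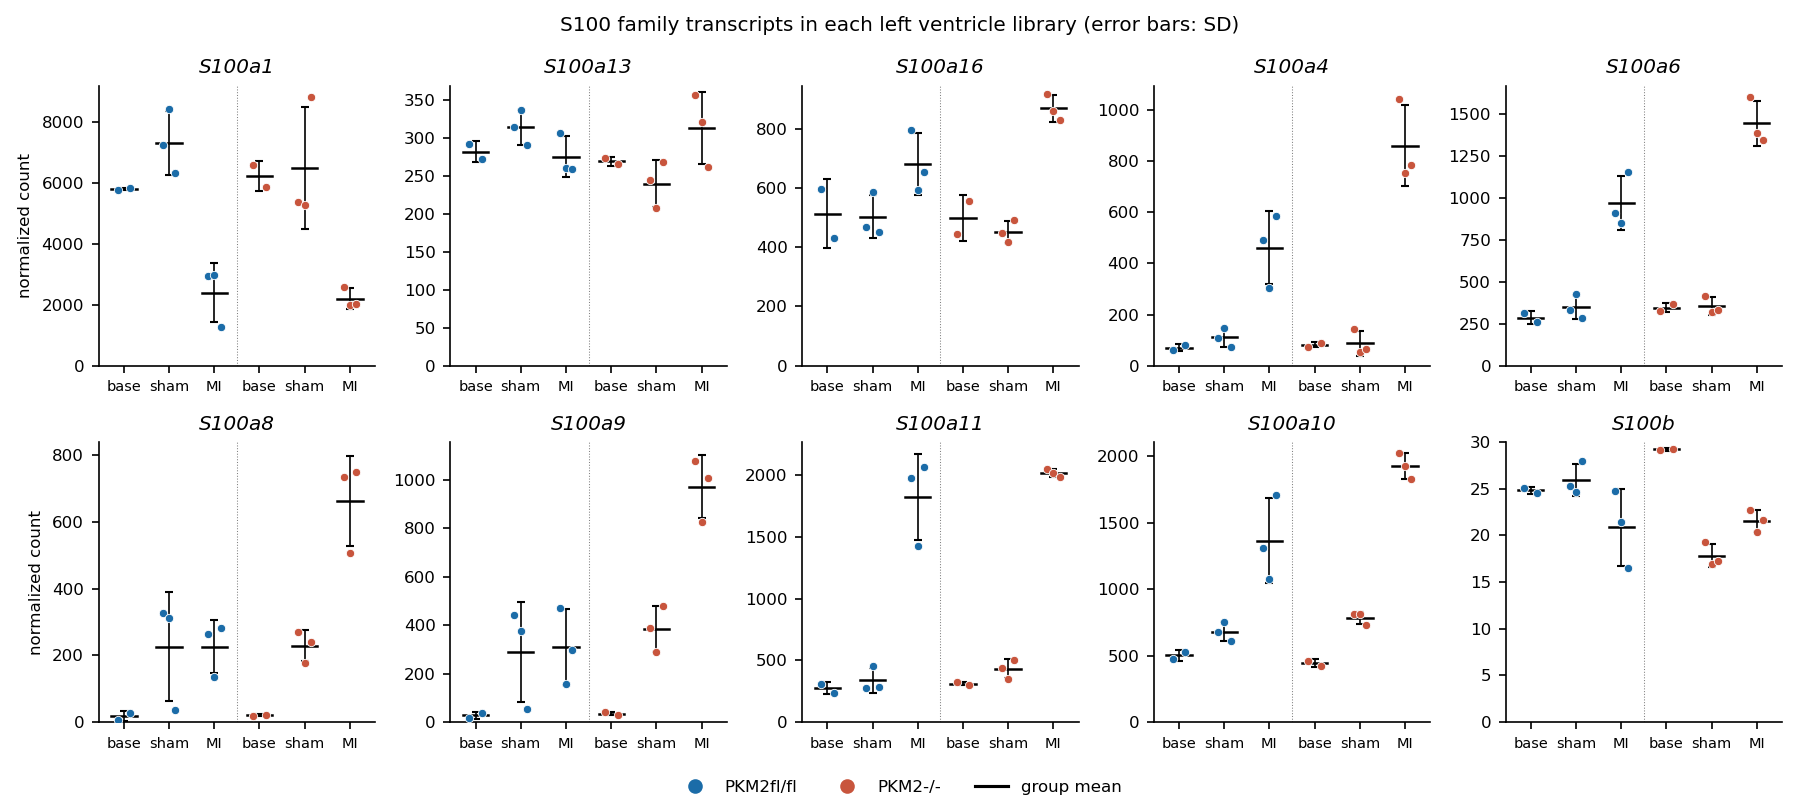
Normalized counts (linear axis from 0 in each panel) of the 10 S100 genes in every library, by group, with points for libraries, a bar for the group mean and error bars for the SD. S100a1 is lower in all 6 MI hearts than in any other heart, S100a4, S100a6, S100a10 and S100a11 are higher in the MI hearts of both genotypes, and S100a8 and S100a9 are at most 39.6 at baseline.

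After MI, 4 of the 10 genes were called in PKM2fl/fl hearts, with S100a4, S100a6 and S100a11 higher and S100a1 lower, where 23.5% of all genes tested were called (12.4% higher). In PKM2-/- hearts, 5 were called, the same 4 genes in the same directions and S100a10, which was higher, against a background of 28.8% (14.5% higher). The median log2 fold change of the 10 was 0.45 in PKM2fl/fl and 1.33 in PKM2-/- hearts, beside -0.0025 and 0.010 over all genes. Every PKM2fl/fl MI library was above every sham library for 5 of the 10 genes, S100a4, S100a6, S100a10, S100a11 and S100a16, as was the case for 30.0% of all genes tested. The same held in PKM2-/- hearts for these 5 and for S100a8, S100a9 and S100b, 8 of 10, against 31.7% of all genes. The fall of S100a1 and the rises of S100a4, S100a6 and S100a11 kept their direction under each scaling tried.

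**Figure D2:**
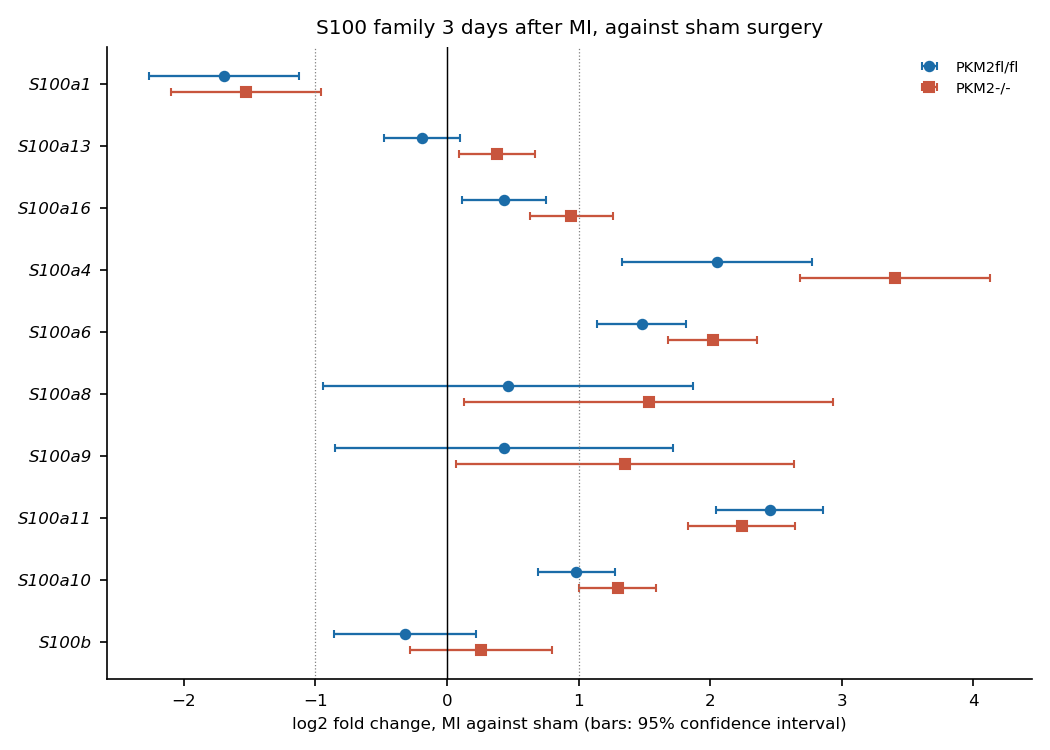
Log2 fold change for MI against sham (x axis) of each S100 gene in PKM2fl/fl (circles) and PKM2-/- hearts (squares), with 95% confidence intervals and dotted lines at 2-fold. S100a11 has 2.45 and 2.24, S100a1 has -1.70 and -1.53, and the intervals of S100a8 and S100a9 are the widest.

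S100a1, the calcium sensor of heart muscle, was the only member called lower after MI in either genotype. In PKM2fl/fl hearts it had 5772 and 5832 normalized counts at baseline, 7241, 8426 and 6323 after sham, and 2939, 2984 and 1287 after MI. For PKM2-/- hearts the values were 6582 and 5882 at baseline, 5384, 5281 and 8815 after sham, and 2592, 1991 and 2028 after MI. All 6 MI libraries were below all 10 others, and the third PKM2fl/fl MI heart was the lowest of all. S100a1 fell by 1.70 on the log2 scale (SE 0.27, limma adjusted p = 9.49e-05, n = 3 per group) in PKM2fl/fl and by 1.53 (SE 0.27, adjusted p = 0.000175) in PKM2-/- hearts, and the difference between these changes was 0.17 (95% confidence interval -0.63 to 0.98).

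The partners of S100A1 in calcium handling were lower with it. Ryr2, the ryanodine receptor that releases calcium from the sarcoplasmic reticulum, changed by -1.37 (log2) in PKM2fl/fl and -1.92 in PKM2-/- hearts. Atp2a2, the SERCA2 pump, changed by -1.80 and -2.54, and Pln, its inhibitor phospholamban, by -1.67 and -2.21. All 3 were called in both genotypes by limma, with adjusted p of at most 0.000325. The summed level of 6 cardiomyocyte markers, of which Ryr2 is one, moved with them, from 754582 to 879552 normalized counts after sham to 148362 to 354112 after MI in PKM2fl/fl hearts, and from 682216 to 827864 to 156298 to 224069 in PKM2-/- hearts. Of those 6 markers, 5 were called lower in PKM2fl/fl and 6 in PKM2-/- hearts. In whole ventricle, fewer cells of a type and less RNA per cell cannot be told apart.

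S100a13, whose product helps to export FGF1 and interleukin 1α from the cell, overlaps S100a1 at its 5′ end and was not called with it. Its level was 292 and 273 at baseline, 314, 338 and 292 after sham and 308, 260.4 and 259.7 after MI in PKM2fl/fl hearts. PKM2-/- hearts had 274 and 266 at baseline, 244, 208 and 269 after sham and 357, 322 and 263 after MI. Sham and MI libraries overlapped in both genotypes. The log2 fold change was -0.19 (limma adjusted p = 0.263) in PKM2fl/fl and 0.38 (adjusted p = 0.0264, under 2-fold) in PKM2-/- hearts, so this gene varied by less than 2-fold over all 16 libraries while its neighbour S100a1 was at 0.308 and 0.347 times its sham level. Fgf1, the growth factor it carries, was called lower in both genotypes, with log2 fold changes of -1.38 and -2.04, and Il1a was not called (0.48 and 0.66, adjusted p = 0.460 and 0.288).

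S100a16, a widely expressed member, rose modestly. It had 596 and 433 at baseline, 470.0, 588 and 453 after sham and 796, 593 and 654 after MI in PKM2fl/fl hearts, against 445 and 555, then 447, 418 and 492, then 919, 861 and 829.5 in PKM2-/- hearts. MI libraries were above sham libraries in both genotypes, but the lowest MI library (593) and the highest sham library (588) of the PKM2fl/fl hearts lay close together. Its log2 fold change was 0.43 (limma adjusted p = 0.0238) and 0.94 (adjusted p = 6.61e-05), in neither case 2-fold.

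**Figure D3:**
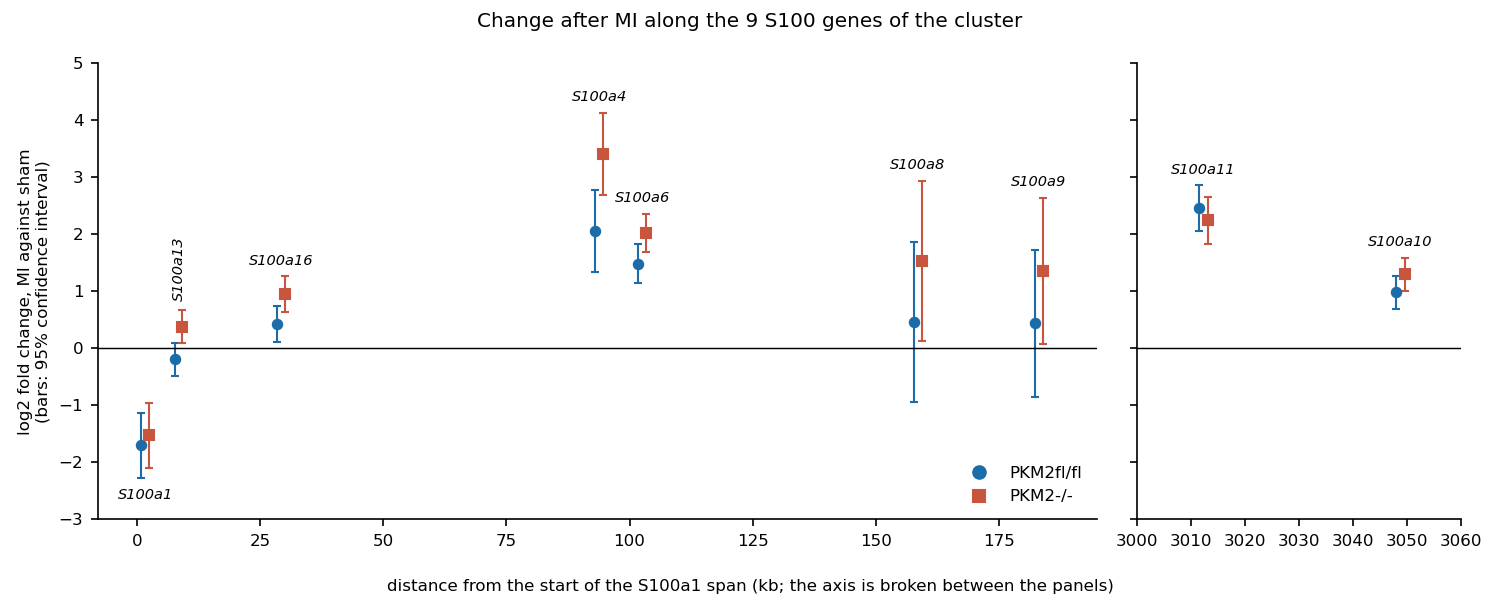
Log2 fold change for MI against sham (y axis, bars are 95% confidence intervals) of the 9 S100 genes on chromosome 3, by distance in kilobases from the start of the S100a1 span, in PKM2fl/fl (circles) and PKM2-/- hearts (squares), with a broken x axis. The estimates go from -1.70 at S100a1 to 2.05 and 3.41 at S100a4, and lie between 0.98 and 2.45 at S100a11 and S100a10.

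S100a4 and S100a6 are neighbours, with 6848 bases between them, and both rose after MI. S100A4 binds the heavy chain of non-muscle myosin IIA and is known as a fibroblast and leukocyte protein, and S100A6 (calcyclin) binds annexins and the calcyclin-binding protein. S100a4 had 60.4 and 80.3 normalized counts at baseline, 109.9, 149 and 74.0 after sham, and 492, 305 and 587 after MI in PKM2fl/fl hearts. In PKM2-/- hearts it had 74.6 and 88.0, then 143, 52.2 and 66.9, then 1044, 754 and 785. The lowest MI value in either genotype was above the highest sham value of both, and the 3 PKM2-/- MI hearts were above the 3 PKM2fl/fl MI hearts. S100a4 rose 4.15-fold (log2 2.05, SE 0.34, limma adjusted p = 0.000141) in PKM2fl/fl and 10.6-fold (log2 3.41, SE 0.34, adjusted p = 1.15e-06) in PKM2-/- hearts.

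S100a6 had 314 and 258 at baseline, 333, 426 and 287 after sham and 910.5, 847 and 1151 after MI in PKM2fl/fl hearts. In PKM2-/- hearts the values were 328 and 365, then 416, 319 and 334, then 1598, 1386 and 1345. Groups separated as for S100a4, with a narrower spread. The rise was 2.79-fold (log2 1.48, SE 0.16, limma adjusted p = 3.67e-06) and 4.06-fold (log2 2.02, SE 0.16, adjusted p = 1.78e-07). Myh9, the myosin heavy chain bound by S100A4, also rose, by 1.74 and 1.81 on the log2 scale, whereas Cacybp, the calcyclin-binding protein, was at -0.079 (adjusted p = 0.656) and -0.33 (adjusted p = 0.0488, under 2-fold).

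S100a11 and S100a10 form the far pair of the cluster, and their products bind annexins A1 and A2 at membranes. S100a11 had 306 and 238 at baseline, 278, 452 and 280.4 after sham and 1974, 1428 and 2071 after MI in PKM2fl/fl hearts, and 322 and 301, then 440.5, 349 and 504, then 2049, 2021 and 1987 in PKM2-/- hearts. MI libraries lay far above the sham libraries in both genotypes, with PKM2-/- values inside the PKM2fl/fl range. The rise was 5.48-fold (log2 2.45, SE 0.19, limma adjusted p = 2.06e-07) in PKM2fl/fl and 4.73-fold (log2 2.24, SE 0.19, adjusted p = 3.26e-07) in PKM2-/- hearts. The pseudogene S100a11-ps had 3 reads over all libraries.

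S100a10 (p11) had 473 and 528 at baseline, 674, 754 and 611 after sham and 1309, 1075 and 1708 after MI in PKM2fl/fl hearts. In PKM2-/- hearts it had 462 and 419.7, then 810.3, 811 and 731, then 2026, 1926 and 1831. Baseline, sham and MI libraries followed each other without overlap in both genotypes. It rose 2.46-fold (log2 1.30, SE 0.14, limma adjusted p = 1.98e-06) in PKM2-/- hearts, and in PKM2fl/fl hearts its 1.98-fold change (log2 0.98, SE 0.14, adjusted p = 3.43e-05) stopped just short of the 2-fold threshold. It passed there by DESeq2 (log2 1.01), with total reads scaling without rRNA loci (1.11), and without PKM2fl/fl sham heart 2 (1.06) or PKM2fl/fl MI heart 2 (1.14). Anxa2, the partner of S100A10 in the annexin A2 tetramer, rose by 1.93 and 1.94 on the log2 scale, and Anxa1, the partner of S100A11, rose by 1.90 and 2.21. Anxa6, Anxa11 and Ahnak, further partners, were not called, with log2 fold changes between -0.38 and -0.0013. Of 14 intracellular partners and targets listed, 13 were tested, and 3 were called higher (Anxa2, Myh9, Anxa1) and 4 lower (Atp2a2, Pln, Ryr2, Fgf1) in each genotype.

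Markers of other cells moved with the rising members. All 7 monocyte and macrophage markers were called higher after MI in both genotypes, with a summed level of 4635 to 9137 after sham and 19661 to 35048 after MI in PKM2fl/fl hearts, and of 6007 to 7783 and 25842 to 30272 in PKM2-/- hearts. Of 6 fibroblast markers, the 4 matrix genes Col1a1, Col1a2, Col3a1 and Postn were called higher in both, and Pdgfra and Dcn were not called. The sum of all 6 went from 24171 to 45424 to 162341 to 176212 in PKM2fl/fl and from 27755 to 45252 to 141808 to 196246 in PKM2-/- hearts. None of 4 endothelial markers was called by limma in either genotype, and their sum stayed between 12859 and 17406 in sham and MI libraries. What part these cells had in the S100 changes was not tested.

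S100a8 and S100a9 encode the chains of calprotectin, a main protein of the neutrophil cytosol. Their estimated change from baseline to sham was larger than that from sham to MI in both genotypes. S100a8 had 6.28 and 27.9 normalized counts in PKM2fl/fl hearts at baseline, 327, 312 and 36.3 after sham and 263, 134 and 281 after MI. PKM2-/- hearts had 18.6 and 22.0, then 268, 178 and 239, then 734, 506 and 749. Every sham and MI library was above every baseline library, and sham and MI overlapped in PKM2fl/fl hearts only. The baseline values rest on 8 to 42 reads.

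S100a9 followed S100a8 in order of groups. It had 15.7 and 37.8 at baseline, 441, 375 and 53.9 after sham and 469.9, 159 and 298 after MI in PKM2fl/fl hearts, and 39.6 and 29.3, then 387, 289 and 479, then 1079.8, 827 and 1007 in PKM2-/- hearts. The ratio of S100a9 to S100a8 lay between 1.06 and 2.5 in all 16 libraries, and its highest value came from the baseline library with 8 reads of S100a8. The third PKM2fl/fl sham heart stood apart, at 36.3 and 53.9 for the pair, where the other 5 sham hearts had at least 178 and 289.

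Sham against baseline gave S100a8 a log2 fold change of 3.41 (SE 0.74, limma adjusted p = 0.0151) and S100a9 one of 3.43 (SE 0.67, adjusted p = 0.00966) in PKM2-/- hearts, so that 2 of the 10 members were called there against 2.66% of all genes. In PKM2fl/fl hearts the estimates were 3.43 (SE 0.74, adjusted p = 0.0796) and 3.04 (SE 0.67, adjusted p = 0.0857), and 0 of the 10 were called, against 0.170% of all genes. An unadjusted limma p under 0.05 was found for 3 of the 10, against 8.81% of all genes. edgeR also called 0, and DESeq2 called 2, where 227 of 21439 genes were called higher and 11 lower. Without the third PKM2fl/fl sham heart, the same fit gave 4.47 (adjusted p = 0.000408) and 4.0 (adjusted p = 0.000386), and both were called. The PKM2-/- call of S100a8 was lost without baseline heart 1, baseline heart 2 or sham heart 1 (limma adjusted p = 0.10, 0.0848 and 0.0508), and that of S100a9 without baseline heart 2 (adjusted p = 0.0848). S100a10 was the only other member with an adjusted p under 0.05, at 0.83 (log2, SE 0.15, adjusted p = 0.00713) in PKM2-/- hearts.

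MI against sham, which shares the sham hearts with the comparison just given, left the calprotectin genes uncalled. In PKM2fl/fl hearts the log2 fold change was 0.46 (95% confidence interval -0.94 to 1.87, limma adjusted p = 0.584) for S100a8 and 0.43 (-0.85 to 1.72, adjusted p = 0.576) for S100a9. Without the third PKM2fl/fl sham heart these turned to -0.57 and -0.53, with adjusted p of 0.323 and 0.300. In PKM2-/- hearts they were 1.53 (0.13 to 2.94, adjusted p = 0.0593) and 1.35 (0.07 to 2.64, adjusted p = 0.0681), and all 3 MI libraries were above all 3 sham libraries for both genes. Both were called in PKM2-/- hearts by edgeR on the recovered reads (adjusted p = 0.0252 and 0.0399), by limma on only the groups compared (0.000108 and 0.000150), with total reads scaling (0.000249 and 0.000250) and with that scaling without rRNA loci (0.0146 and 0.0139). DESeq2 called neither (adjusted p = 0.0544 and 0.0772). Against baseline hearts, an alternative chosen after seeing the data, S100a8 and S100a9 were called after MI in both genotypes, at 3.90 and 3.47 in PKM2fl/fl and 4.94 and 4.78 in PKM2-/- hearts.

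**Figure D4:**
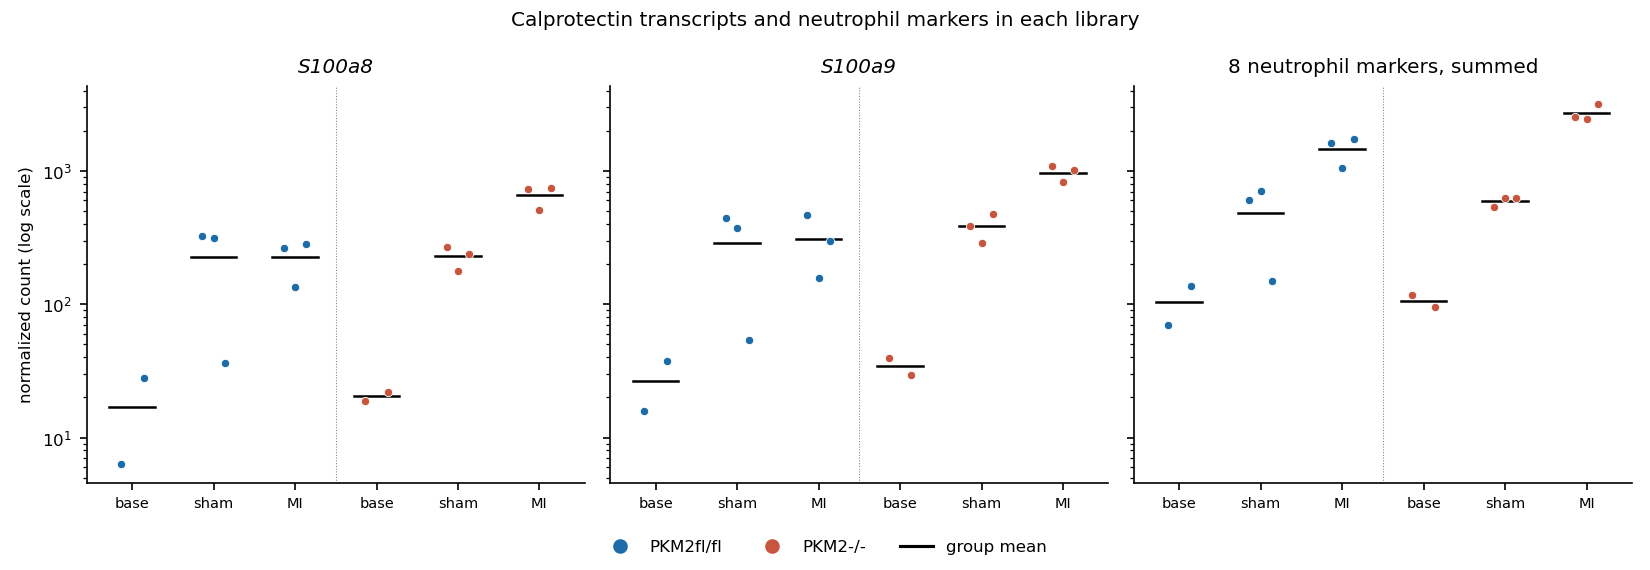
Normalized counts on a log axis of S100a8, S100a9 and the sum of 8 neutrophil markers in each library by group, with points for libraries and bars for group means. The third PKM2fl/fl sham heart is low in all 3 panels (36.3, 53.9 and 148), and the marker sum separates sham from MI in both genotypes whereas S100a8 and S100a9 do so in PKM2-/- hearts only.

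Neutrophil markers were read beside the pair. Their sum was 69.9 and 137 in PKM2fl/fl baseline hearts, 602, 702 and 148 after sham, and 1615, 1049 and 1736 after MI. PKM2-/- hearts had 117 and 95.3, then 535, 623 and 625, then 2529, 2462 and 3172. The third PKM2fl/fl sham heart was thus low for the markers as well, and MI libraries were above sham libraries in both genotypes, unlike S100a8 and S100a9 in PKM2fl/fl hearts. Of the 8 markers, 4 passed the filter on low values, and Ly6g, Camp, Ltf and Ngp did not. Csf3r made up the largest part of the sum after MI, with 1179, 788 and 1270 in PKM2fl/fl and 1582, 1739 and 2124 in PKM2-/- hearts. Cxcr2, Csf3r and Mmp8 were called higher after MI in both genotypes, while Retnlg was not. Retnlg, whose product is secreted by neutrophils, had 94.6, 63.6 and 6.86 in PKM2fl/fl sham and 40.2, 21.4 and 20.1 in PKM2fl/fl MI hearts. It had 48.2, 70.5 and 113 in PKM2-/- sham and 86.7, 71.1 and 119.7 in PKM2-/- MI hearts. Its sham and MI values thus overlapped in both genotypes, whereas those of S100a8 and S100a9 did so in PKM2fl/fl hearts only. Ly6g, the defining surface marker, was at 0 in all 4 baseline hearts and at most 9.65 in any heart. The part of neutrophil content in the S100a8 and S100a9 values was not tested.

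For receptors of released S100 proteins and their signalling, 8 genes were tested, and 2 were called higher and 2 lower after MI in each genotype. Cd14, the co-receptor of TLR4, rose by 1.63 and 1.91 on the log2 scale and Cd68, a scavenger receptor that is also on the list of macrophage markers, by 3.09 and 2.78. Cd36 and Bsg (basigin), which both bind S100A8/S100A9 or S100A9 and are abundant in the heart, fell by 1.34 and 1.12 in PKM2fl/fl and by 1.47 and 1.27 in PKM2-/- hearts. Tlr4 itself was at 0.15 (limma adjusted p = 0.526) in PKM2fl/fl and 0.78 (adjusted p = 0.00277, under 2-fold) in PKM2-/- hearts. Its mean was 2103 after sham and 2326 after MI in PKM2fl/fl hearts, and 1292 and 2192 in PKM2-/- hearts. The genotypes thus differed more after sham (log2 -0.70, limma adjusted p = 0.193) than after MI (-0.076, adjusted p = 0.881). Ager, which encodes RAGE, was low throughout, with 4.66 to 24.3 normalized counts, and was not called (0.43 and 0.99, adjusted p = 0.414 and 0.0546). Cd14 and Cd68 were also called higher for sham against baseline in PKM2-/- hearts (1.99 and 1.01).

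S100b, the form of glia and Schwann cells, was the rarest of the 10, at 12 to 57 reads per library. It had 25.1 and 24.5 normalized counts at baseline, 25.3, 24.6 and 27.9 after sham and 24.7, 21.4 and 16.5 after MI in PKM2fl/fl hearts, and 29.1 and 29.3, then 19.3, 17.0 and 17.3, then 22.7, 20.3 and 21.6 in PKM2-/- hearts. Values stayed within a 2-fold range, and the PKM2-/- baseline hearts were the highest. For MI against sham the estimates were -0.32 (limma adjusted p = 0.317) and 0.26 (adjusted p = 0.400), with 95% confidence intervals of -0.86 to 0.22 and -0.28 to 0.80. The summed level of 5 Schwann cell markers was 513 to 794 in sham and 738 to 910.3 in MI libraries. Of these markers 4 were tested, and 1 was called higher and 2 lower after MI in PKM2fl/fl hearts (Cdh19, Sox10 and Mbp) and 1 higher and 1 lower in PKM2-/- hearts (Sox10 and Mbp). The median log2 fold change of the 4 was -0.98 and -0.85, so the sum did not stand for the single markers.

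Genotype alone moved none of the 10 genes past the thresholds. At baseline 0 of 10 were called by limma, where 0.00972% of all genes were called, and 0 had an unadjusted p under 0.05, against 3.64% of all genes. After sham, against 0.00486% of all genes, 0 of 10 were called, and S100a13 alone had an unadjusted p under 0.05 (log2 -0.39, limma adjusted p = 0.314), against 9.95% of all genes. After MI 0 of 10 were called, against 0.413% of all genes, and 6 had an unadjusted p under 0.05, against 17.0% of all genes. edgeR and DESeq2 also called 0 of 10 in these 3 comparisons, though after MI S100a6 and S100a10 had an adjusted p under 0.05 by DESeq2 (0.0208 and 0.0257) at less than a 2-fold change.

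Those 6 genes were the ones whose PKM2-/- MI libraries all lay above the PKM2fl/fl MI libraries, 6 of 10 members against 10.7% of all genes tested. S100a9 had the largest difference, 1.78 on the log2 scale (95% confidence interval 0.49 to 3.06, limma adjusted p = 0.151), and S100a8 came next with 1.60 (0.20 to 3.00, adjusted p = 0.232). S100a4 was at 0.93 (adjusted p = 0.175), S100a6 at 0.58 (adjusted p = 0.0853), S100a10 at 0.52 (adjusted p = 0.0733) and S100a16 at 0.36 (adjusted p = 0.229). S100a1, S100a11, S100a13 and S100b had estimates of -0.036 to 0.18, and their libraries overlapped. With scaling by total reads, S100a8 and S100a9 were called, at 1.97 and 2.14 (limma adjusted p = 0.0193 and 0.00292). With it, the median of all genes had moved by 0.36 and 121 of 20698 genes were called. When rRNA loci were left out of that scaling, 0 of the 10 were called, against 72 of 20622 genes. S100a8 and S100a9 were then at 1.76 and 1.94 (limma adjusted p = 0.143 and 0.0867).

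**Figure D5:**
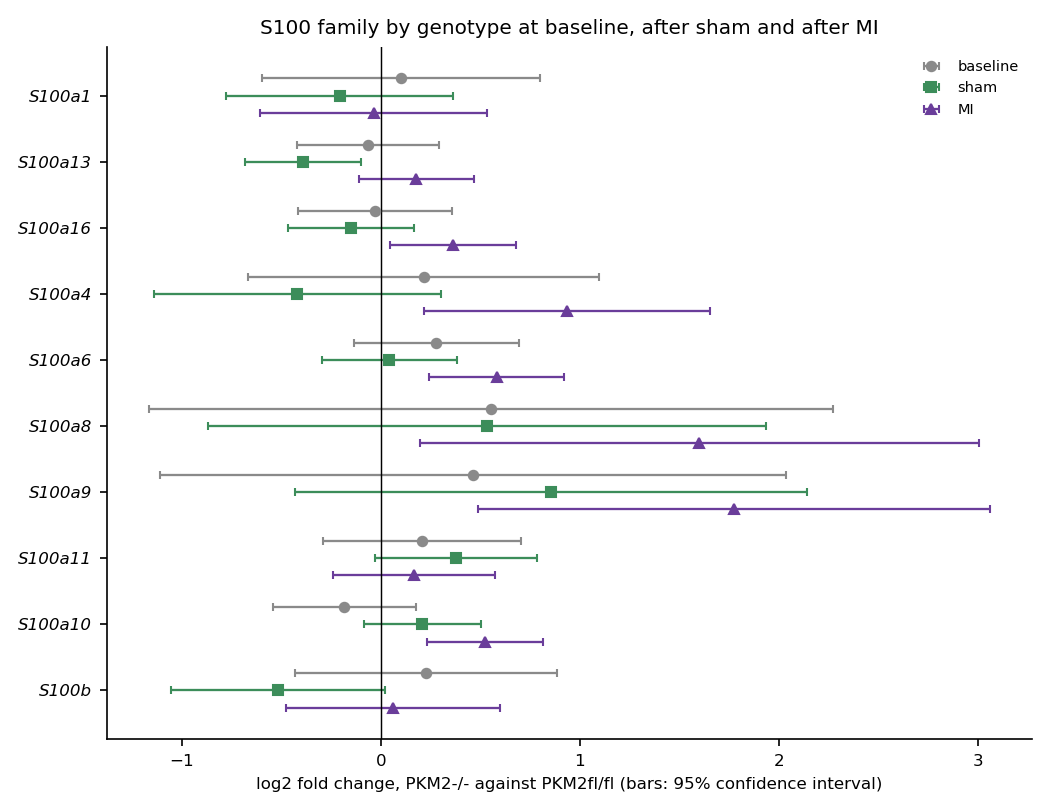
Log2 fold change of PKM2-/- against PKM2fl/fl hearts (x axis, bars are 95% confidence intervals) for each S100 gene at baseline (circles), after sham (squares) and after MI (triangles). After MI the intervals of 6 genes lie above 0, with the largest estimates for S100a9 (1.78) and S100a8 (1.60), and none passed adjustment over all genes in limma.

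Marker sums after MI went with genotype in part. Neutrophil markers summed to 2462 to 3172 in PKM2-/- against 1049 to 1736 in PKM2fl/fl MI hearts, without overlap. Smooth muscle and pericyte markers also did not overlap, in the other direction, at 7578 to 8606 against 9083 to 11743. Monocyte and macrophage markers (25842 to 30272 against 19661 to 35048), fibroblast markers (141808 to 196246 against 162341 to 176212) and cardiomyocyte markers (156298 to 224069 against 148362 to 354112) overlapped, and none of the markers on these 5 lists was called for genotype by limma. The part of these differences in the S100 values was not tested.

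The change from sham to MI was also compared between genotypes directly, with an interaction term. None of the 10 genes was called by limma, and 0% of all genes were. An unadjusted p under 0.05 was found for 4 of the 10, against 8.28% of all genes. Among these 4, S100a4 had the largest difference, 1.35 (95% confidence interval 0.34 to 2.37, limma adjusted p = 0.512). S100a13 was at 0.57 (adjusted p = 0.502), S100a6 at 0.54 (adjusted p = 0.566) and S100a16 at 0.51 (adjusted p = 0.557). All 4 were larger in PKM2-/- hearts. S100a8 and S100a9 had estimates of 1.07 and 0.92, and their intervals (-0.92 to 3.05 and -0.90 to 2.74) held both 0 and differences of more than 4-fold.

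The other S100 genes of the table were at or near the floor in left ventricle. S100a3, S100a5, S100a7a, S100a14 and S100g reached at most 16.5 normalized counts in any library, and none passed the filter on low values. S100a2, which was added after its values were seen, reached 7.32. S100a7l2 and S100z had 0 reads in all 16 libraries, which allows up to 3 reads per library, counting error only.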

How the data were processed

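RNA was sequenced from left ventricles of 16 mice in 6 groups, read from the sample labels. For the deposited table, PRINSEQ was used for trimming, HISAT2 for alignment to mm10, featureCounts for gene counts and DESeq2 for group comparisons. The authors deposited a normalized signal per gene and library, the count divided by the DESeq2 size factor. How the counting treated strand and multi-mapped reads is not given in the sources used here. The table also holds the authors' log2 fold change, standard error, Wald score and p-values for the baseline genotypes, which were not used. All columns of values were matched to a sample (0 without).

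Deposited values were whole multiples of 1 step per library (100% within a tolerance of 0.1), so reads were recovered by division. Library size ranged from 20623769 to 71855101 reads, and intervals on fold changes are 95% confidence intervals from limma. The planned test for normalized values, limma-trend (limma 3.58.1, R 4.3.3), was run on log2(value + 1) with 6 group means, for 20576 genes with a mean of at least 10. Adjustment was by Benjamini-Hochberg over these genes. Standard deviations and n are over mice. The fit was tested on simulated data. Separate mice make the replicates. The 10 members, the receptor and partner lists and the cell markers were chosen with earlier results of these data known. The text names all 10 members, the other S100 genes, and of the receptors and partners those called after MI and the best known partner of each member.

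Alternatives were a pseudocount of 0.5, no filter, total reads scaling with and without rRNA loci, TMM, edgeR 4.0.16 and DESeq2 1.42.0 on recovered reads, the replicate block, only the groups compared, each library left out, and, added after the data were seen, baseline hearts as controls. Upstream sequences and positions come from RefSeq on GRCm38.p6, and transcript lengths from GENCODE M39.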

Additional observations from a re-analysis of the deposited data

Results flagged for a closer look

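S100a10 and S100b drew attention because every PKM2-/- heart lay on one side of every PKM2fl/fl heart under one condition and on the other side under another. S100a10 was lower in both PKM2-/- hearts at baseline (462 and 419.7 normalized counts, against 473 and 528) and higher in all 3 PKM2-/- hearts after MI (2026, 1926 and 1831, against 1309, 1075 and 1708), and its genotype effect after MI minus that at baseline was 0.71 on the log2 scale. S100b was higher in both PKM2-/- hearts at baseline (29.1 and 29.3, against 25.1 and 24.5) and lower in all 3 after sham (19.3, 17.0 and 17.3, against 25.3, 24.6 and 27.9), with an effect after sham minus that at baseline of -0.74. The S100b values rest on 12 to 57 reads per library. At baseline, with 2 hearts per genotype, the limma confidence intervals of the genotype effects included no change. They were -0.54 to 0.17 for S100a10 (log2 -0.18) and -0.43 to 0.89 for S100b (0.23). The interval of S100b after sham (-0.52) also included it, at -1.06 to 0.02. That of S100a10 after MI (0.52) lay above it, at 0.23 to 0.82. Neither difference between conditions was tested, and the share of all genes with such a reversal was not counted.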

How the results depend on the processing

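Direction and side of the threshold of the counts held under most alternatives. With total reads scaling, 8 of the 10 members were called for MI against sham in PKM2-/- hearts, where 7006 of 20698 genes were called. That scaling called 2 members for genotype after MI, against 121 of all genes. For sham against baseline in PKM2fl/fl hearts it called 2, against 94 of all genes. The gained calls in PKM2-/- MI hearts were S100a8, S100a9 and S100a16. Without rRNA loci, 8 were again called for MI against sham in PKM2-/- hearts, against 6468 of 20622 genes. For genotype after MI, 0 were then called, against 72 of all genes. For sham against baseline in PKM2fl/fl hearts, 1 was then called, against 45 of all genes. DESeq2 gave 2 for that comparison, with 227 genes called higher and 11 lower of 21439. With baseline hearts as controls, an alternative chosen after seeing the data, 7 were called in PKM2fl/fl MI hearts, and S100b turned to -0.42 in PKM2-/- hearts. The share of all genes called with these controls is not given here. Leaving out each library gave 0 to 2 members for sham against baseline in PKM2fl/fl (2 without PKM2fl/fl sham heart 3) and 0 to 2 in PKM2-/- hearts (0 without baseline heart 2, 1 without baseline heart 1 or sham heart 1). For MI against sham in PKM2fl/fl hearts, leaving out each library gave -0.57 to 1.00 for S100a8 and -0.53 to 0.97 for S100a9, the lowest without PKM2fl/fl sham heart 3. For the changes with scaling or tool, the cause was not tested.

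No pairing by replicate number was seen: deviations of libraries with the same number correlated at -0.20 to 0.13, and 3 of 16 libraries correlated best with their own number. With groups of 2 or 3 hearts, these correlations could miss a weak pairing. With the replicate block, 4 members were called in PKM2fl/fl and 5 in PKM2-/- hearts for MI against sham, as without it. Over all genes, calls for genotype after MI were 85, against 271 by DESeq2, 46 with the block and 6 with only the groups compared, and those for sham against baseline in PKM2fl/fl hearts 35, against 94 with total reads, 238 by DESeq2, 22 by edgeR, 23 with the block and 1 with only the groups compared. Total reads and DESeq2 also raised the genotype calls at baseline from 2 to 44 and 16, after sham from 1 to 113 and 111, and for the interaction from 0 to 54 and 34. Leaving out 1 library moved the genotype calls after MI to 11 to 634 (the highest without PKM2fl/fl MI heart 3) and those for sham against baseline in PKM2fl/fl hearts to 7 to 212 (the highest without PKM2fl/fl sham heart 3). Groups of 2 or 3 hearts and the low reads of S100a8, S100a9 and S100b at baseline limit the precision.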
